A study of Mus musculus with 9 samples.

Results

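The genes described here make cholesterol and fatty acids, sense sterols and move cholesterol in and out of the cell. They were 42 genes chosen by symbol, of 22176 genes listed in either deposited table: 7 of the mevalonate pathway, 11 from squalene to cholesterol, 8 of fatty acid synthesis and desaturation, 5 that control SREBP, 6 of the LXR receptors and cholesterol efflux, and 5 of esterification and transport. RNA was sequenced from 9 mouse cultures of strain C57BL, with 1 library per group. Of these, 4 were bone-marrow-derived macrophages (BMDM) of 2 kinds, labelled GM-BMDM and M-BMDM, either untreated or given tunicamycin (Tm) for 4 h. Tunicamycin blocks N-linked glycosylation and so stresses protein folding in the endoplasmic reticulum. The other 5 came from the mouse tumour line LLC (Lewis lung carcinoma): 1 untreated, and 4 kept for 24 h in medium that GM-BMDM or M-BMDM had conditioned for 16 h. Those macrophages had received tunicamycin for 12 h ("stressed medium") or for 0 h ("unstressed medium") and were washed before the fresh serum-containing medium was added. The labels give no feeding of the untreated LLC cells and no age, sex or pooling of marrow donors. LLC is a single line, and with 1 library per group the spread between replicate cultures or animals was not measured. The p-values below test terms of additive fits, against an error taken only from how these libraries depart from the fits. That error was pooled between genes, partly in BMDM and fully in LLC.

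Cells make cholesterol from acetyl-CoA through mevalonate and squalene, and most enzymes of this route are driven together by SREBP transcription factors. SREBP is carried from the endoplasmic reticulum by Scap when sterols are low and is held back by the Insig proteins when they are high. Excess sterol activates the LXR receptors, whose targets include the cholesterol exporters Abca1 and Abcg1, and macrophages that take up lipid store surplus cholesterol as esters made by Soat enzymes.

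Reads per library totalled 37695079 to 42751176 in BMDM and 15020068 to 17128471 in LLC. Levels are given as CPM, the reads of a gene scaled to libraries of equal size after a TMM correction, a method that takes most genes as equal between libraries. The 2 tables were normalised separately, so levels were compared only within BMDM or within LLC, and levels of different genes only per length, as FPKM. In bulk samples, fewer cells of a type and less RNA per cell cannot be told apart. All 10 macrophage markers were at or above 1 CPM in every BMDM library. In LLC the macrophage markers summed to 26.6 to 40.7 CPM, and Adgre1, Ptprc, Itgam and Tyrobp had 0 reads in all 5 libraries. The largest in LLC were Mertk (8.06 to 15.8 CPM), Cd14 (10.9 to 16.8 CPM) and Lyz2 (2.73 to 5.01 CPM). Of the epithelial markers, LLC cells held Krt8 (320 to 494 CPM) and Krt18 (27.4 to 42.4 CPM), while Krt19 had 0 reads and Epcam and Cdh1 were at 0 to 0.195 CPM.

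All 42 genes passed the filter of a mean of at least 1 CPM in BMDM, and 41 of 42 passed in LLC. The exception was Abca1, with 0, 0, 0, 1 and 3 reads in the 5 LLC libraries, where a count of 0 in the untreated library allows up to 0.198 CPM. Per length, Apoe, an apolipoprotein that carries cholesterol out of macrophages, was the highest of the 42 in every BMDM library (651 to 8485 FPKM). Soat2, the second sterol O-acyltransferase, was the lowest in 3 of 4 BMDM libraries, at 0.14 to 0.49 FPKM. In every LLC library the order from the top was Scd2 (187 to 268 FPKM), Scd1 (79.2 to 117 FPKM) and Insig1 (51.4 to 85.4 FPKM). Scd1 and Scd2 are stearoyl-CoA desaturases, which put the double bond into saturated fatty acids.

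Reads of a few genes may be shared with near-identical copies. Fdps, the farnesyl diphosphate synthase, matched 6 annotated pseudogenes at up to 98.9% identity and overlaps the model Gm43738 over 7512 bases. Idi1, an isomerase of the same pathway, matched 5 pseudogenes, one of them identical over 684 bases. Acat2 shared 97.7% of 1477 bases with Acat3 (at most 14 reads in any library) and 98.7% of 445 bases with Tcp1 (up to 11568 reads). Acaca, the acetyl-CoA carboxylase, shared 99.2% of 6118 bases with the pseudogene Gm5182, and Scd1 and Scd2 shared 88.0% of 1195 bases. The strand setting of the counting was not given, and Fdft1 overlaps Ctsb on the opposite strand by 774 bases, where Ctsb held up to 433771 reads in BMDM. Npc1 overlaps Rmc1 on the opposite strand by 967 bases, where Rmc1 held up to 3183 reads in BMDM and 478 in LLC. Tm7sf2 overlaps Vps51 on the same strand by 532 bases. In LLC Vps51 held up to 597 reads, against 55 to 91 for Tm7sf2. Values of these genes are uncertain to that extent.

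The start regions of the sterol genes share one short element that the choice of genes did not use. Promoter windows of 250 bases before to 50 bases after the start were taken from RefSeq for build GRCm38.p6. The set searched held windows of 32 of the 42 genes, with 43 windows in all, and did not cover the whole genome. The box CCAAT, searched on both strands, is the binding sequence of NF-Y, which works beside SREBP at sterol genes. It stood in 24 of 43 windows, against 37.4% of all 32851 windows searched. Among the 18 cholesterol synthesis genes, 15 had a window and 14 of those had a CCAAT box in at least 1; the exception was Acat2. By windows, 14 of 18 held the box. The sterol element core TCACNCCAC, on either strand, stood in the window of Hmgcs1 alone, against 1.24% of all windows. The looser form TCACNCNAC, which includes the first, was in Hmgcs1 and Nsdhl, against 2.70%. TGATGNAA, the core of the ATF4 element, was found in Apoe, Idi1 and Insig2 (4 of 43 windows, against 3.97% of all windows). The nuclear receptor half-site AGGTCA was found in Acly, Dhcr7, Elovl6, Hmgcs1 and Insig1 (7 of 43 windows, against 16.3%). CACGTG, the E-box, was found in Abca1, Dhcr7, Hsd17b7, Insig1, Sc5d and Scap (7 of 43 windows, against 7.15%). A match is a description of letters, not a shown binding site. The 5 windows below show Hmgcs1 and Nsdhl for the sterol element, Mvk and Msmo1 for their repeated CCAAT boxes, and Insig1 as the regulator that differed between media in LLC cells. Capitals mark the CCAAT box in either orientation and the sterol element in either form. They lie on GRCm38.p6 as Hmgcs1 at chr13:119690101-119690400 (+ strand), Mvk at chr5:114444019-114444318 (+ strand), Msmo1 at chr8:64733529-64733828 (- strand), Nsdhl at chrX:72918271-72918570 (+ strand) and Insig1 at chr5:28071162-28071461 (+ strand).
Hmgcs1: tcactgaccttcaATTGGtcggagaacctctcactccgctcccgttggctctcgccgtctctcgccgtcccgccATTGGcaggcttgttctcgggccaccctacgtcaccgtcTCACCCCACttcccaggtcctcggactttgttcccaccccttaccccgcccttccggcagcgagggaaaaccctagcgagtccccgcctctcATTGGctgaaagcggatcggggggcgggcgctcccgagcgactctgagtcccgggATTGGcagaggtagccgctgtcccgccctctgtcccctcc
Mvk: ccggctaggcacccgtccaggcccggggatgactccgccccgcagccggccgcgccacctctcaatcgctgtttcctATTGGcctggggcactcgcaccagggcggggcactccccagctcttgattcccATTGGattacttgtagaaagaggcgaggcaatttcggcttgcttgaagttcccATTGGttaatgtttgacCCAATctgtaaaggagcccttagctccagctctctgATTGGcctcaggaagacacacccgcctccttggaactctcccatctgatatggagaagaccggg
Msmo1: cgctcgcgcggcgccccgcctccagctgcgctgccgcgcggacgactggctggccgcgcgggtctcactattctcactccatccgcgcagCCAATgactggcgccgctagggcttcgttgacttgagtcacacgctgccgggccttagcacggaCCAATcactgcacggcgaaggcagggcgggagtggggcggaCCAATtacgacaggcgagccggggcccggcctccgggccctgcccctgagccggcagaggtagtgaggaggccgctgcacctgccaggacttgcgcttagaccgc
Nsdhl: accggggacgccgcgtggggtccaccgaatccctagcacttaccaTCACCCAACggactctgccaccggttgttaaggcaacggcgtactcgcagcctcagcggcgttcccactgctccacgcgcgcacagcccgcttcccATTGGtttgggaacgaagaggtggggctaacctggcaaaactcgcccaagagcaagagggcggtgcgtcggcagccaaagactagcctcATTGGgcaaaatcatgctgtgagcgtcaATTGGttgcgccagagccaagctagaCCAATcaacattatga
Insig1: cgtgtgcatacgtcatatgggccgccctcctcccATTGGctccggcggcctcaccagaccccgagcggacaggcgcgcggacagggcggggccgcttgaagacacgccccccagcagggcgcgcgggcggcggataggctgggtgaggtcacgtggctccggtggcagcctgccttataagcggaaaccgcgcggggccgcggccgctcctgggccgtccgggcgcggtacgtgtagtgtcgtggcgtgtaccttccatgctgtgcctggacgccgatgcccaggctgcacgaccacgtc
Mvk, the mevalonate kinase, had 5 CCAAT boxes, Hmgcs1 and Nsdhl 4 each, Msmo1 3 and Insig1 1.

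Which of these genes differ between the 2 kinds of macrophage was asked in an additive fit over the 4 BMDM libraries, with kind and tunicamycin as terms and 1 residual degree of freedom. GM-BMDM held more mRNA of the whole cholesterol pathway and of nearly all of fatty acid synthesis, while M-BMDM held more of the exporter Abca1, of Apoe and of Mylip. Of the 42 genes, 29 were higher in GM-BMDM and 4 were lower in edgeR's quasi-likelihood test at a Benjamini-Hochberg adjusted p under 0.05, against 25.4% and 25.0% of the 11049 genes tested. The median log2 fold change was 1.41 over the 42 genes and -0.04 over all genes. DESeq2 called the same 29 and 4, beside 2544 higher and 2064 lower of all genes. In pairs of libraries, at least 1.5-fold on the log2(CPM + 1) scale, 26 genes were higher and 3 lower without tunicamycin (background 18.9% and 15.5%), and 28 and 4 with it (19.9% and 17.5%).

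Every one of the 18 cholesterol synthesis genes was higher in GM-BMDM, with a median log2 fold change of 1.72. Mvd, which makes isopentenyl diphosphate, stood at 135 and 145 CPM in untreated and tunicamycin-treated GM-BMDM and at 25.4 and 26.1 CPM in the M-BMDM pair. Its log2 fold change was 2.45 (SE 0.12, adjusted p = 8.47e-06). Acat2, the thiolase at the entry to the pathway, stood at 76.6 and 80.9 CPM against 17.7 and 11.7 CPM (2.45, SE 0.19). For both genes the 2 kinds did not overlap. The other members ranged from 0.77 for Ebp, a sterol isomerase, to 2.17 for Dhcr7, which makes cholesterol from its last precursor. Summed over the 18 genes, the level was 2437 and 2298 CPM in GM-BMDM and 892 and 663 CPM in M-BMDM.

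The widest gaps were in the desaturases. Scd1 (ENSMUSG00000037071, chr19:44394455-44407879, GRCm38) stood at 282.5 and 248.6 CPM in untreated and treated GM-BMDM and at 2.50 and 2.84 CPM in M-BMDM. The fitted log2 fold change was 6.63 (SE 0.17, adjusted p = 2.26e-06), and between the untreated libraries the ratio was 113-fold, with a counting interval of 92.3 to 140. Scd2, its neighbour on the chromosome, stood at 808 and 729 CPM against 33.5 and 23.6 CPM (4.77, SE 0.16, adjusted p = 2.88e-06). Fads2, the first desaturase of polyunsaturated fatty acids, stood at 48.3 and 47.7 CPM against 5.05 and 6.14 CPM (3.10, SE 0.15). Fads1, the next desaturase of that route, stood at 85.7 and 85.5 CPM against 93.7 and 94.6 CPM, and was the only one of the 8 fatty acid genes not called (-0.14, SE 0.11, adjusted p = 0.329). Acly, Acaca, Fasn and Elovl6, which make and lengthen saturated fatty acids, were higher by 1.49, 1.38, 1.59 and 2.16 on the log2 scale.

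Of the 5 genes that control SREBP, 1 was called. Srebf1, which encodes the SREBP that favours fatty acid genes, was higher in GM-BMDM, at 74.0 and 64.5 CPM against 51.0 and 50.7 CPM (0.44, SE 0.12, adjusted p = 0.0199). Srebf2, whose SREBP favours cholesterol genes, stood at 107 and 95.4 CPM against 85.1 and 88.9 CPM and was not called (0.21, SE 0.12). Insig1 stood at 209 and 199 CPM against 179 and 198 CPM, Insig2 at 19.8 and 17.2 against 22.0 and 19.5 CPM, and Scap at 38.3 and 41.3 against 41.6 and 46.9 CPM. None of these 3 was called, and the libraries of the 2 kinds overlapped for Insig2.

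LXR targets differed in both directions. Abcg1 stood at 797 and 804 CPM in GM-BMDM and at 190 and 165 CPM in M-BMDM (2.17, SE 0.13). Abca1, the exporter that loads cholesterol on to apolipoproteins, went the other way, at 224 and 176 CPM against 521 and 692 CPM (-1.60, SE 0.19). Apoe stood at 1455 and 1533 CPM in GM-BMDM and at 18350 and 13810 CPM in M-BMDM (-3.41, SE 0.20, adjusted p = 1.99e-05). Mylip, a ubiquitin ligase that degrades lipoprotein receptors, stood at 41.1 and 44.7 CPM against 126 and 178 CPM (-1.80, SE 0.14). The receptors themselves were not called: Nr1h2 stood at 54.5 and 56.3 CPM against 66.2 and 61.7 CPM, and Nr1h3 at 13.3 and 12.7 CPM against 15.5 and 18.1 CPM. With total counts as the only scaling, which shifts libraries by up to 0.16 on the log2 scale, Nr1h3 was called lower in GM-BMDM at -0.44.

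Among the genes of storage and transport, Soat1, which makes the cholesteryl esters that macrophages store, was higher in GM-BMDM (1207 and 1105 CPM against 838 and 721 CPM; 0.57, SE 0.12). Stard4, a carrier of free cholesterol, was also higher (1.69, SE 0.13), and the lysosomal exporters Npc1 and Npc2 were not called. Soat2 was called lower (-2.49, SE 0.45), but its 4 levels, 0.323 and 1.084 CPM in GM-BMDM and 0.698 and 8.89 CPM in M-BMDM, overlapped between the kinds and rest on 13, 46, 26 and 375 reads.

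**Figure D1:**
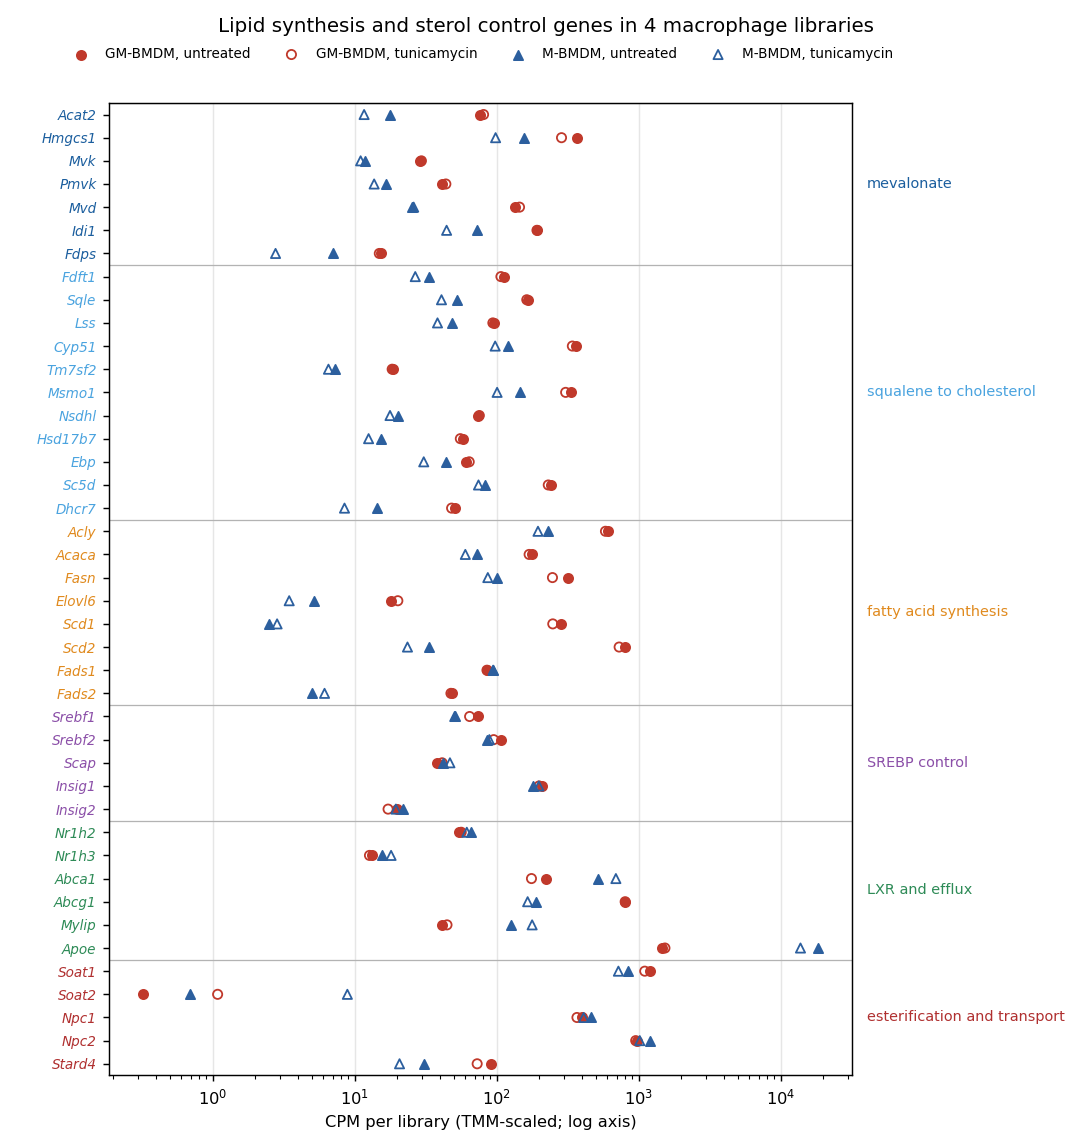
CPM of each of the 42 genes (log axis) in the 4 macrophage libraries, 1 symbol per library, with genes grouped by role. GM-BMDM (circles) lie to the right of M-BMDM (triangles) for every cholesterol synthesis gene, and the order is turned for Abca1, Mylip and Apoe.

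Other measures moved with the kind of macrophage as well. Markers of dividing cells summed to 1199 and 1047 CPM in GM-BMDM and to 341 and 381 CPM in M-BMDM, with 8 of 8 genes at or above 1 CPM in each library. Neutrophil markers summed to 1678 and 1606 CPM (8 and 6 of 8 genes at or above 1 CPM) against 50.3 and 31.7 CPM (3 and 3 of 8). Mmp8 alone held 1459 and 1485 CPM of the GM-BMDM sums, against 45.6 and 25.7 CPM in M-BMDM, while S100a9 stood at 71.8 and 42.8 against 1.58 and 2.13 CPM. The sums of mast cell, basophil and eosinophil markers were 134 and 104 CPM (3 and 3 of 5) against 1.56 and 1.21 CPM (0 and 0 of 5). Of the macrophage markers, Csf1r stood at 1002 and 945 CPM in GM-BMDM against 5517 and 4742 CPM in M-BMDM. Adgre1 stood at 470 and 434 against 3163 and 2546 CPM. Itgam went the other way, at 365 and 379.5 against 144 and 107 CPM. The part of all these markers in the differences above was not tested.

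Whether tunicamycin changes these genes within 4 h was asked in the same fit. No member passed the test: 0 of 42 were higher and 0 lower, against 0.00% and 0.00% of all genes. Without adjustment 6 of 42 members and 1103 of all genes had a p under 0.05, and DESeq2 called 52 genes, of which Soat2 was the single member. In this fit any difference between the responses of the 2 kinds counts as error. The values lay mostly on one side, with 33 of 42 members below 0 and 17 of the 18 cholesterol synthesis genes below 0 (median -0.19, against 0.00 over all genes). With total counts as the only scaling, 27 of 42 and 14 of 18 lay below 0.

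The 2 kinds are therefore given apart, as single pairs of libraries with no test. In GM-BMDM the median difference over the members was -0.05 in log2(CPM + 1), and 1 gene was past 1.5-fold higher and 0 lower, against 0.326% and 1.63% of all genes. In M-BMDM the median was -0.21 and, over the cholesterol synthesis genes, -0.32. Here 1 member was past 1.5-fold higher and 4 lower, against 3.90% and 3.02% of all genes. The 4 lower genes were Fdps (7.06 to 2.77 CPM), Idi1 (72.7 to 44.4 CPM), Dhcr7 (14.3 to 8.48 CPM) and Hmgcs1 (156 to 98.4 CPM), the synthase that starts the mevalonate route. Their CPM ratios were 0.393 (counting interval 0.313 to 0.490), 0.612 (0.576 to 0.649), 0.593 (0.517 to 0.679) and 0.630 (0.605 to 0.656). In GM-BMDM Fdps went from 15.4 to 14.9 CPM, Idi1 from 193.5 to 192.4 CPM, Dhcr7 from 51.2 to 48.2 CPM and Hmgcs1 from 369 to 286.5 CPM, and the 4 ratios were 0.969, 0.994, 0.941 and 0.777. Acat2 went from 17.7 to 11.7 CPM in M-BMDM and from 76.6 to 80.9 CPM in GM-BMDM, and Stard4 from 30.7 to 20.7 CPM and from 91.2 to 73.0 CPM. Elovl6, which lengthens saturated fatty acids, went from 5.21 to 3.46 CPM in M-BMDM and from 18.1 to 20.2 CPM in GM-BMDM.

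Soat2 (ENSMUSG00000023045, chr15:102150526-102163469, GRCm38) had the largest ratio in both kinds. It went from 13 to 46 reads in GM-BMDM and from 26 to 375 reads in M-BMDM, or from 0.323 to 1.084 CPM and from 0.698 to 8.89 CPM. The ratio was 3.36-fold (counting interval 1.78 to 6.77) and 12.7-fold (8.56 to 19.8). In the fit its log2 fold change of 3.01 (SE 0.46) did not pass (adjusted p = 0.264), whereas it was called without the low-count filter (3.02, adjusted p = 0.00182) and by DESeq2 (2.79, adjusted p = 0.00140).

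Abca1 went opposite ways in the 2 kinds, from 224 to 176 CPM in GM-BMDM and from 521 to 692 CPM in M-BMDM. Mylip went from 126 to 178 CPM in M-BMDM and from 41.1 to 44.7 CPM in GM-BMDM. Srebf1, Srebf2, Scap, Insig1, Insig2, Nr1h2, Nr1h3 and Abcg1 were under 1.5-fold in both pairs. The sum of 5 stress genes, among them Hspa5 and Ddit3, went from 1280 to 1904 CPM in GM-BMDM and from 1259 to 3236 CPM in M-BMDM. Its part in the differences between kinds was not tested.

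**Figure D2:**
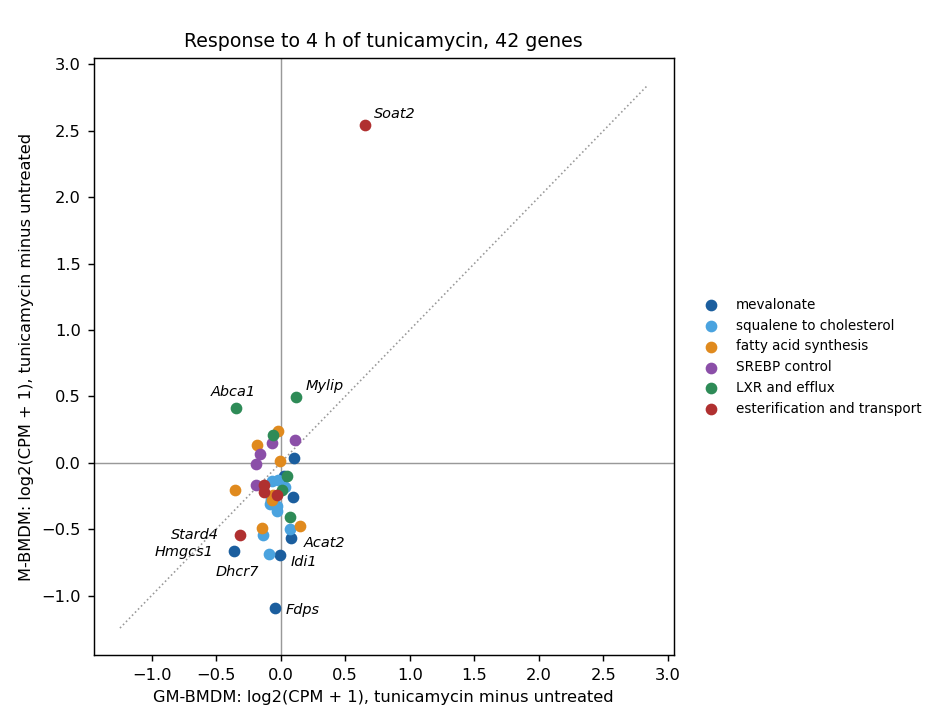
Difference in log2(CPM + 1) between tunicamycin-treated and untreated cells, GM-BMDM on the horizontal axis and M-BMDM on the vertical axis, 1 point per gene for all 42 genes; the dotted line marks equal differences. Soat2 lies far above the rest at 2.54 in M-BMDM, and most cholesterol synthesis genes lie below 0 on the vertical axis and near 0 on the horizontal.

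In LLC cells the first question was what macrophage medium of any kind did. An additive fit over the 5 LLC libraries held medium against none, stressed against unstressed medium, and GM against M medium. The term for medium rests on 1 untreated library, which all 4 media share as their control. The exporter Abcg1, the lysosomal pair Npc1 and Npc2, and Apoe were lower in medium. Of the members called, Soat2, Fdps, Mvk, Sqle and Scd2 were the most raised. Of 41 members tested, 12 were higher and 11 lower, against 24.9% and 21.9% of the 11190 genes tested, so neither share lay far from the background, and the median was 0.09. DESeq2 called 4 higher (Soat2, Sqle, Scd2, Srebf1) and 4 lower (Abcg1, Npc1, Npc2, Scd1), beside 1005 higher and 987 lower of all genes. With a fitted change of at least 1.5-fold as a further condition, 5 remained: Soat2, Fdps, Abcg1, Apoe and Npc1.

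Soat2 stood at 2.24 CPM in untreated LLC cells (34 reads), 7.93 and 7.74 CPM in unstressed GM and M medium, and 16 and 13.2 CPM in stressed GM and M medium. For both kinds of medium the order was untreated, unstressed, stressed, and the medium term was 2.25 (SE 0.26, adjusted p = 1.46e-16). Fdps stood at 0.659, 2.27, 3.16, 3.40 and 2.84 CPM in the same order (2.13, SE 0.49), from 10 reads in the untreated library. Sqle, the squalene epoxidase, stood at 41.8, 48.4, 50.7, 73.6 and 73.6 CPM (0.53, SE 0.09). Mvk stood at 12.6, 18.0, 18.5, 18.5 and 19.8 CPM (0.57, SE 0.15), and Scd2 at 1014, 1360, 1448, 1450 and 1375 CPM (0.47, SE 0.06). For each of these genes all 4 media lay above the untreated library.

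Abcg1 had the lowest fitted value of the members: it stood at 218 CPM untreated and at 113, 111, 99.6 and 78.8 CPM in the 4 media (-1.13, SE 0.06, adjusted p = 2.73e-67). Npc1, which lets cholesterol out of lysosomes, stood at 106 CPM untreated and at 58.3, 63.1, 72.2 and 70.5 CPM in medium (-0.69, SE 0.07). Its partner Npc2 fell from 224 CPM to 156, 171, 159 and 172 CPM (-0.45, SE 0.06). Apoe stood at 10.7 CPM untreated and at 4.16, 4.19, 6.68 and 8.99 CPM (-0.91, SE 0.21; 64 to 163 reads). Scd1, in contrast to Scd2, was lower in medium, from 565 CPM to 447, 532, 391 and 443 CPM (-0.33, SE 0.06).

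Of the regulators, Srebf1 rose from 160 CPM to 214, 214, 194 and 175 CPM (0.31, SE 0.07), while Srebf2, at 190 CPM untreated and 189, 200, 230 and 220 CPM, was not called. Scap, at 128 CPM untreated and 150, 137, 134 and 142 CPM, was not called either. Insig1 was lower (-0.28, SE 0.06), although 1 of its 4 media lay above the untreated library. Insig2 was lower, from 69.7 CPM to 62.9, 60.4, 60.8 and 57.9 CPM (-0.20, SE 0.08). Nr1h2 was lower (75.4 CPM to 62.6, 73.5, 63.3 and 60.3 CPM; -0.22, SE 0.08), and Nr1h3, at 7.04 to 10.01 CPM, was not called. Mylip was at 0.710 to 1.69 CPM, from 11 to 26 reads, and was not called. DESeq2 did not call Insig1, Insig2 or Nr1h2.

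In pairs with the shared untreated library, past 1.5-fold, unstressed GM medium had 3 members higher and 5 lower (background 6.68% and 7.22%) and unstressed M medium 2 and 4 (4.95% and 5.28%). Stressed GM medium had 3 and 2 (7.36% and 8.44%), and stressed M medium 7 and 1 (6.87% and 8.26%). The 7 were Mvk, Idi1, Fdps, Sqle, Lss, Msmo1 and Soat2, 6 of them enzymes of cholesterol synthesis. Markers of dividing cells summed to 2606 CPM in untreated LLC cells and to 3254 to 3463 CPM in medium; their part in the changes was not tested.

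**Figure D3:**
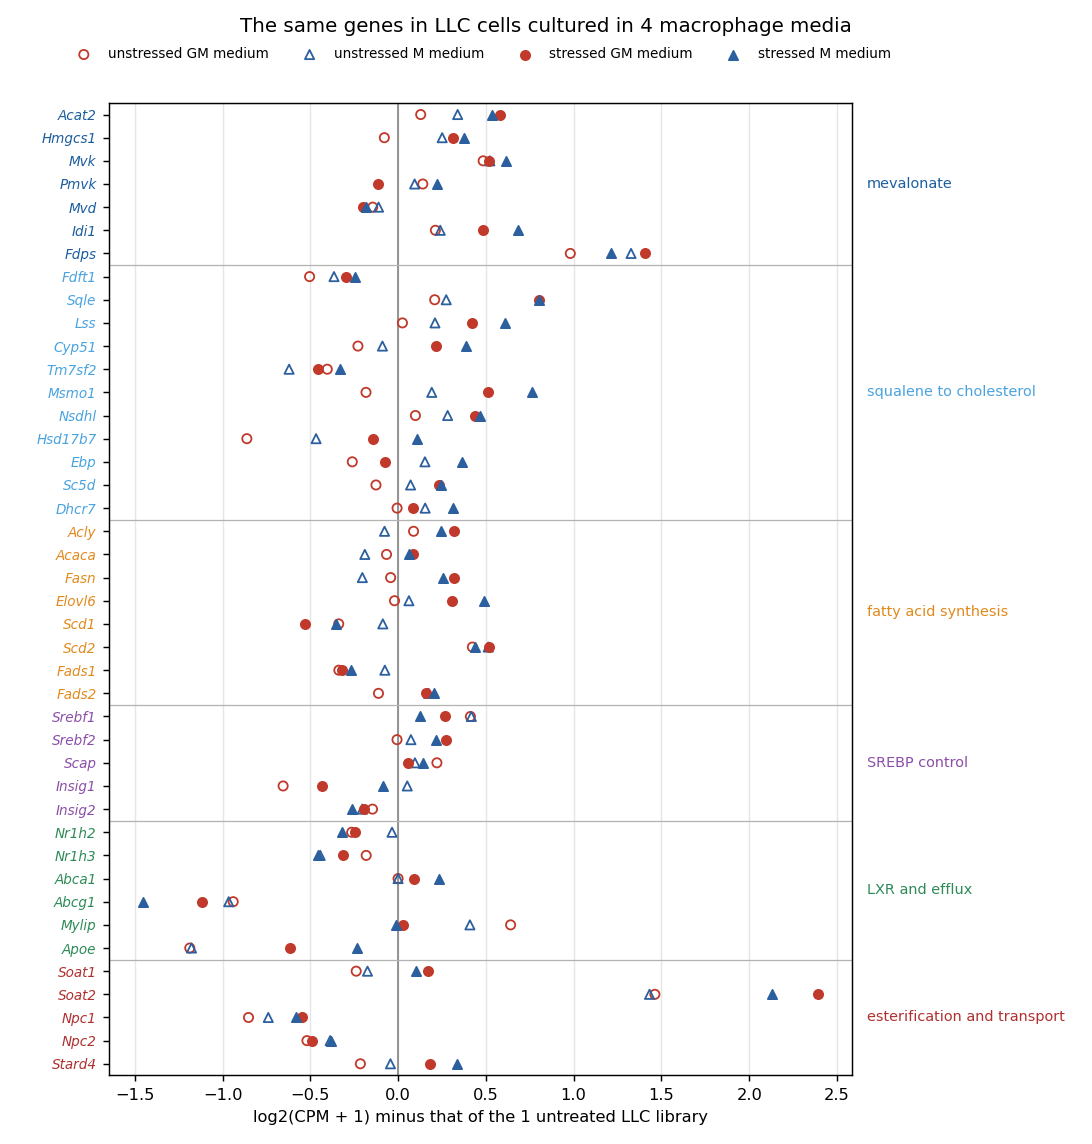
Difference in log2(CPM + 1) of each gene between LLC cells in each of 4 media and the 1 untreated LLC library, 1 symbol per library. Soat2 lies to the right and Abcg1 to the left of 0 in all 4 media, and the filled symbols (stressed medium) lie to the right of the open ones for most sterol synthesis genes.

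Whether medium from tunicamycin-treated macrophages differs in its effect from medium of unstressed ones was asked with the second term of the LLC fit. Msmo1, Hsd17b7, Sqle, Fasn and other synthesis genes were higher with stressed medium, while 9 of 18 cholesterol and 4 of 8 fatty acid genes passed the test as higher. Of 41 members 19 were higher and 3 lower, against 12.5% and 10.9% of all genes, and the median was 0.20 against 0.00 over all genes. In the cholesterol pathway 9 of 18 genes rose and 0 fell, and 16 of 18 lay above 0. Among fatty acid genes 4 of 8 rose (Fasn, Elovl6, Acly, Acaca) and 1 fell (Scd1), and among the esterification and transport genes 4 of 5 rose. Leaving the untreated library out of the fit gave 19 and 3 again. DESeq2 called 6 of the 22 (Msmo1, Sqle, Cyp51, Fasn and Elovl6 higher, Scd1 lower), did not call 12, and gave no adjusted p for Apoe, Hsd17b7, Idi1 and Soat2. Over all genes DESeq2 called 308 higher and 168 lower.

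Msmo1, which removes methyl groups from the sterol ring, stood at 35.8 and 46.7 CPM in unstressed GM and M medium and at 58.6 and 70.0 CPM in stressed medium (0.64, SE 0.08, adjusted p = 9.23e-14). Hsd17b7, a sterol ketone reductase, stood at 8.25 and 11.2 CPM against 14.2 and 17.1 CPM (0.69, SE 0.15). Sqle stood at 48.4 and 50.7 CPM against 73.6 and 73.6 CPM (0.57, SE 0.07). Both stressed libraries lay above both unstressed ones for each of these 3 genes. Cyp51, the sterol demethylase, stood at 50.1 and 55.3 CPM against 68.7 and 77.3 CPM (0.47, SE 0.07), and Lss, which closes the sterol ring, at 27.2 and 31.1 CPM against 36.2 and 41.3 CPM (0.41, SE 0.10). Compared with untreated cells, at 58.9 CPM for Cyp51, 15.8 CPM for Hsd17b7 and 40.8 CPM for Msmo1, unstressed medium was lower for Cyp51 and Hsd17b7, and on both sides for Msmo1. Fasn, the fatty acid synthase, stood at 371 CPM untreated, at 360 and 322 CPM in unstressed and at 463 and 443 CPM in stressed medium (0.41, SE 0.06, adjusted p = 9.28e-12).

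Soat2 was higher with stressed medium by 0.89 on the log2 scale (SE 0.16), with ratios of 2.02 (counting interval 1.62 to 2.525) in GM and 1.70 (1.36 to 2.145) in M medium. Apoe was higher by 0.90 (SE 0.21), with ratios of 1.605 (1.17 to 2.225) and 2.14 (1.59 to 2.91), and did not reach the level of untreated cells. The 3 genes that fell were Abcg1 (113 and 111 CPM to 99.6 and 78.8 CPM; -0.34, SE 0.06), Scd1 (447 and 532 CPM to 391 and 443 CPM; -0.23, SE 0.05) and Srebf1 (214 and 214 CPM to 194 and 175 CPM; -0.22, SE 0.06). For all 3 both stressed libraries lay below both unstressed ones. Srebf2 rose by 0.21 (SE 0.06), and Scap, Insig1, Insig2, Nr1h2, Nr1h3 and Mylip were not called.

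As single pairs with no test, GM medium had 4 members past 1.5-fold higher with stress (Sqle, Msmo1, Hsd17b7, Soat2) and 1 lower, Mylip at 26 and 12 reads, against 1.49% and 2.16% of all genes. M medium had 2 higher (Apoe, Soat2) and 0 lower, against 1.94% and 2.79%. Among the regulators, Insig1 went from 159 to 186 CPM in GM medium and from 261 to 237 CPM in M medium. Scap (-0.16 and 0.04 in log2(CPM + 1)) and Nr1h2 (0.02 and -0.28) also differed in sign between GM and M medium. The 5 stress genes summed to 1669 CPM in untreated LLC cells, 2291 and 2273 CPM in unstressed and 3807 and 4053 CPM in stressed medium. Hspa5 had the largest rise with stressed medium, from 1158 to 2555 CPM in GM and from 1206 to 2907 CPM in M medium. Ddit3 and Atf4 were also higher in both. Trib3 went from 204.7 to 213.2 CPM in GM and from 175.2 to 173.5 CPM in M medium. Chac1 went from 45.29 to 33.95 CPM and from 31.16 to 31.17 CPM. The part of these stress genes in the sterol gene changes was not tested.

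**Figure D4:**
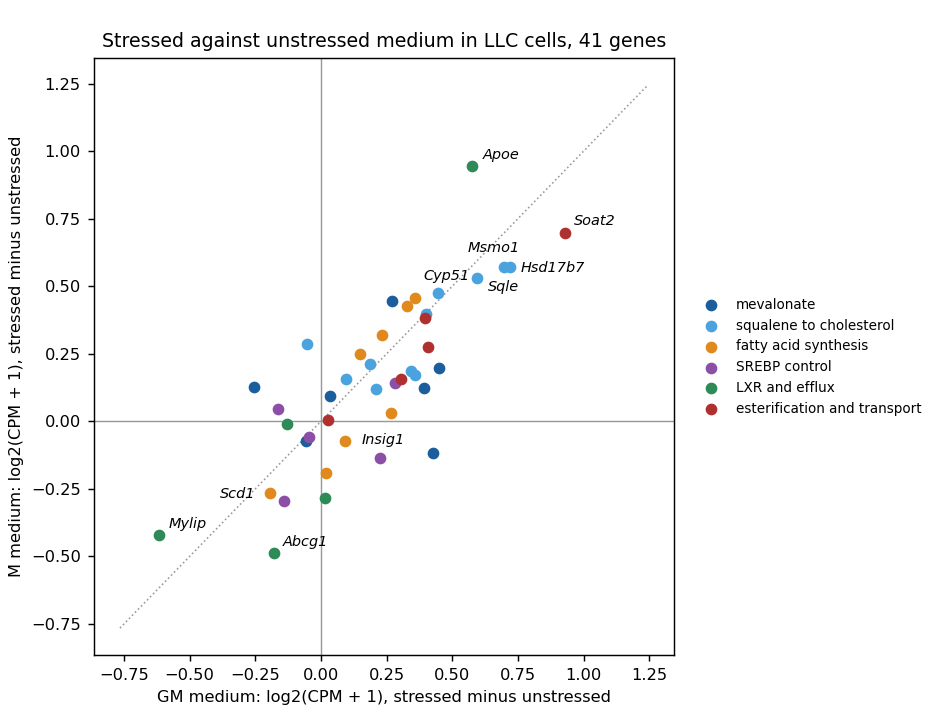
Difference in log2(CPM + 1) between LLC cells in stressed and in unstressed medium, for GM medium (horizontal) and M medium (vertical), 1 point per gene for 41 genes; the dotted line marks equal differences. Most synthesis genes lie in the upper right, Soat2 (0.93 and 0.70) and Apoe (0.57 and 0.94) far out, and Abcg1 and Scd1 in the lower left.

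The third term asked whether medium from GM-BMDM and from M-BMDM differ in their effect on LLC cells. Here 0 members were higher and 4 lower in GM medium, against 2.21% and 2.32% of all genes. The 4 were Insig1, Ebp, Msmo1 and Scd1. Insig1 (ENSMUSG00000045294, chr5:28071363-28078662, GRCm38) stood at 251 CPM in untreated cells, 159 and 186 CPM in unstressed and stressed GM medium, and 261 and 237 CPM in M medium (-0.53, SE 0.06, adjusted p = 7.96e-17). Both GM media lay below the untreated library, and the M media lay on either side of it. In the stressed pair the gap was smaller, with an M to GM ratio of 1.27 (counting interval 1.21 to 1.34) against 1.64 (1.56 to 1.72) in the unstressed pair; the difference between the pairs was not tested. Ebp stood at 11.8 and 13.5 CPM against 16 and 18.7 CPM (-0.45, SE 0.14), Msmo1 at 35.8 and 58.6 against 46.7 and 70.0 CPM (-0.31, SE 0.08), and Scd1 at 447 and 391 against 532 and 443 CPM (-0.22, SE 0.05). Of the 18 cholesterol synthesis genes 17 lay below 0 (median -0.12, against 0.00 over all genes). DESeq2 called 0 members in this comparison and 30 of all genes, with no adjusted p for Ebp. Without adjustment 15 of the 41 had a p under 0.05 in edgeR, beside 1506 of the 11190 genes tested. In pairs, unstressed GM against unstressed M medium had 0 members past 1.5-fold higher and 1 lower, Insig1 (background 0.903% and 1.01%), and the stressed media had 0 and 0 (0.903% and 0.572%).

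**Figure D5:**
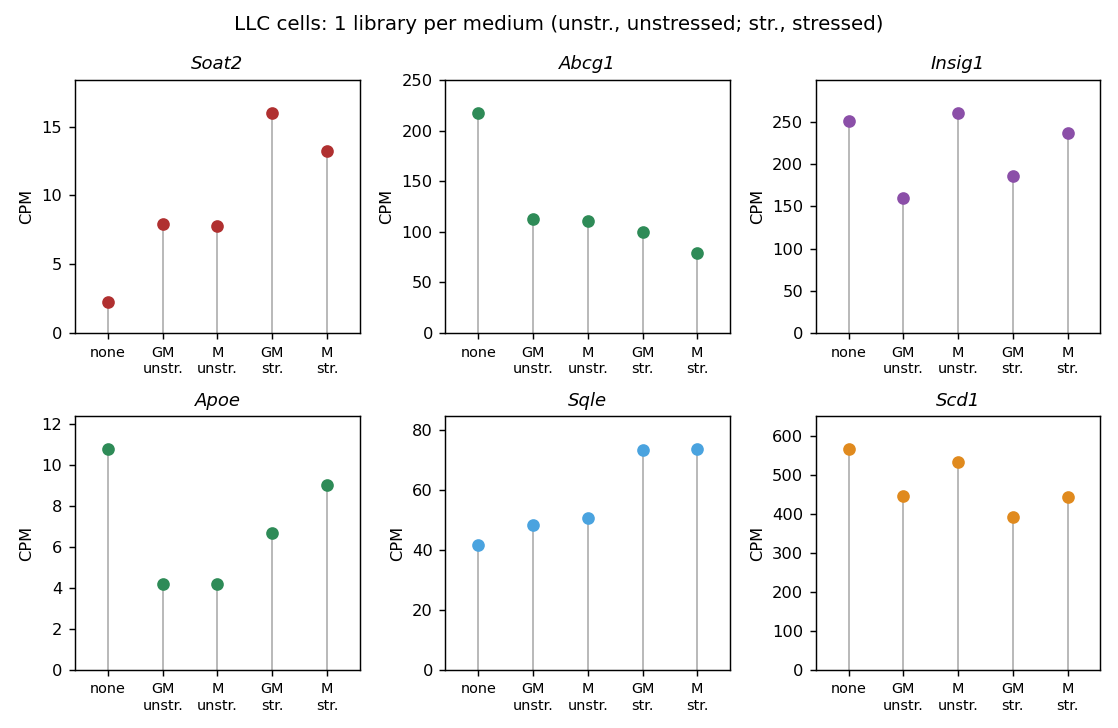
CPM of 6 genes in the 5 LLC libraries (linear axes from 0; none, untreated cells). Soat2 is lowest in untreated cells (2.24 CPM) and highest in stressed GM medium (16 CPM), Abcg1 is highest in untreated cells, Insig1 is lower in both GM media than in the other 3 libraries, and Sqle is highest in both stressed media.

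A list of 37 further lipid genes (among them lipases, lipid carriers, oxysterol enzymes and transporters) was counted in the same fits. In the comparison of macrophage kinds, 14 of 34 tested were higher in GM-BMDM and 6 lower, beside 25.4% and 25.0% of all genes. The largest were Ch25h, which makes an oxysterol, at 3.27 (SE 0.31), Lpin1 at 1.97 and Fabp4 at 1.87, and the lowest were Cyp27a1, another oxysterol enzyme, at -2.78 (SE 0.13), Me1 at -1.18 and Lipa, the lysosomal acid lipase, at -0.88. With tunicamycin 0 were called in either direction. In LLC cells 9 of 32 were higher and 9 lower in medium, shares close to the 24.9% and 21.9% of all genes. The largest values were those of Fabp5 (0.80), Hsd17b12 (0.70) and Plin2 (0.41), and the lowest those of Abcg4 (-1.66), Mlxipl (-0.72) and Lpin1 (-0.55). With stressed medium 11 rose, led by Erlin1 (0.69, SE 0.06), Lpl (0.57) and Fabp5 (0.46), and 4 fell, led by Cyp27a1 (-0.31), Abca2 (-0.30) and Acat1 (-0.30), beside 12.5% and 10.9% of all genes. Between GM and M medium 0 of 32 were called, beside 2.21% and 2.32% of all genes.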

How the data were processed

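Total RNA of 9 mouse libraries was sequenced, 5 of LLC cells and 4 of BMDM, with 1 library per group. The deposited tables, 1 for each cell type, hold whole-number counts of reads for every gene, per the file headers. FPKM values stood beside them in the deposited tables, and equalled count, length and total recomputed here to within 4.9e-06. The submitters' processing notes name cutadapt 1.15, HISAT2 and TopHat2 2.1.0; the counter and its strand setting are not stated there. Gene positions of 99.0% of shared LLC identifiers, and of all 42 genes, equalled GENCODE for GRCm38.

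Genes with a mean of at least 1 CPM were fitted with edgeR 4.0.16 (R 4.3.3; quasi-likelihood test, TMM, Benjamini-Hochberg over all genes tested, threshold 0.05), with 1 residual degree of freedom in each table. The error of each gene was moderated towards that of all genes, with a median of 5.77 prior degrees of freedom in BMDM. In LLC the prior was infinite, so the residual of a single gene had no weight. Standard errors are the log2 fold change over the square root of F. The test was also run on counts simulated from additive means, with a common dispersion taken from these libraries. Such counts cannot show how the test behaves where responses differ between kinds, and their outcome is not reported here. Pairs of libraries have no p-value: they are given as differences of log2(CPM + 1) and as CPM ratios with exact 95% Clopper-Pearson intervals, which cover counting error only. DESeq2 1.42.0 was an alternative, beside other scalings, filters, pseudocounts and thresholds. Near copies were sought with BLAST 2.17.0 (at least 85% identity over 200 bases). The promoter search left out the chromosome that holds Npc1 and Stard4, both for these genes and for the background windows.

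The 42 genes, the further lipid genes and the marker lists were chosen with earlier results of these data known. Values in every library are given for the 8 called genes of largest change in each fit (with none called, the 8 of largest fold between 2 libraries) and for the regulators. A few others were named after their values were seen.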

Additional observations from a re-analysis of the deposited data

Results flagged for a closer look

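Abca1 was singled out because its single tunicamycin pairs went opposite ways in the 2 kinds of macrophage, each by at least 1.2-fold. It went from 224 to 176 CPM in GM-BMDM (-0.35 in log2(CPM + 1)) and from 521 to 692 CPM in M-BMDM (0.41). The GM-BMDM response minus the M-BMDM response was -0.7545. With 1 library per group this difference was not tested.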

How the results depend on the processing

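No called value of these genes changed direction under the alternatives run, but 11 values that were not called did, all of them near 0. With total counts as the only scaling, the tunicamycin values of Srebf2 (0.0325), Pmvk (0.0006), Nsdhl (0.0043), Scd1 (0.0226), Mvk (0.043) and Nr1h2 (0.0537) turned positive, the stressed-medium values of Npc2 (-0.0085) and Scd2 (-0.0148) turned negative, and so did that of Soat1 (-0.0026) for GM against M medium. Fads1 with tunicamycin turned negative with DESeq2 size factors (-0.0093) and in DESeq2 (-0.0138). With tunicamycin, 1 member (Soat2) was called without the low-count filter and 1 (Soat2) by DESeq2, against 0. DESeq2 called 8 members for medium, 6 for stressed medium and 0 for GM against M medium, and a further condition of 1.5-fold left 5, 4 and 0, against 23, 22 and 4. Without the untreated LLC library the last 2 counts were 22 and 4. For single pairs, counts of members past the threshold were as follows. GM-BMDM with tunicamycin had 0 with a pseudocount of 5 CPM, 0 with a mean of at least 5 CPM and 0 at 2-fold, and M-BMDM had 2 at 2-fold. Against untreated LLC cells at 2-fold, unstressed GM medium had 2, unstressed M medium 3, stressed GM medium 3 and stressed M medium 3. With a pseudocount of 5 CPM the stressed media had 3 and 4. Stressed against unstressed GM medium had 2 with that pseudocount and 0 at 2-fold, and M medium 1 and 0. Unstressed GM against unstressed M medium had 0 at 2-fold. With total counts as the scaling, Nr1h3 was called between macrophage kinds (-0.44) and Hmgcs1 was lost for stressed medium (0.24). No paired analysis was possible because each group held 1 library. Leaving out a BMDM library or a medium library leaves no residual degrees of freedom and was not run. The causes of these shifts were not tested.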
